A study of Mus musculus with 9 samples.

Results

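Müller glia are the radial glial cells that span the whole thickness of the retina. They take up the glutamate that neurons release and turn it into glutamine, carry potassium and water away from active synapses, buffer acid, supply lipids and bind the retinoids that cones recycle. The set described here holds 10 genes for these tasks: Glul, Slc1a3, Kcnj10, Aqp4, Car14, Abca8a, Apoe, Rlbp1, Dkk3 and Sox9. They were taken by symbol from a table of 35397 genes, and all 10 were found. Earlier results of these data were known when the set was chosen.

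RNA came from retinas of db/db mice and of wild-type (WT) mice, in 4 libraries (db/db 1, 3, 4 and 5) and 5 libraries (WT 1 to 5). The db/db mouse carries a mutated leptin receptor gene and is used as a model of diabetes with obesity. The labels give no age, sex, strain background or treatment, and do not say whether each library came from its own animal, so p-values measure only the spread between these libraries. Values are FPKM, read counts scaled to gene length and library depth. Low values gave whole reads when the length was that of all exons of a gene joined. That length is 8537 bases for Slc1a3, whose longest transcript has 4435, while for Kcnj10 both are 5407. The order of different genes by level therefore depends on the annotation. A gene was tested where it reached a mean of 1 FPKM over the 9 libraries, as 14588 genes did, and all 10 Müller glia genes were among them. In whole retina, fewer cells of a type and less RNA per cell cannot be told apart.

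The libraries were close in depth, at 36.6 to 46.1 M reads in db/db and 43.0 to 47.9 M reads in WT. One stood apart. In db/db 1, 32.7% of tested genes lay more than 0.5 from the mean of WT on the log2 scale, against 2.48% to 5.13% in the other db/db libraries and 1.38% to 1.99% in each WT library set against the other WT libraries. Its differences also went with transcript length across genes, which are not independent replicates (Spearman correlation -0.54), while those of the other db/db libraries had correlations of -0.13 to 0.18. With GC content the correlation was 0.21 to 0.58 in the db/db libraries and -0.21 to 0.18 in the WT libraries, and none of the 10 genes passed with correction for GC content over all libraries. The calls are therefore given with all libraries and without db/db 1.

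By level, the 10 genes ran from an abundant transcript to a rare one. In db/db retina the order was Glul (697.5 FPKM), Apoe (330.1), Dkk3 (227.8), Rlbp1 (113), Car14 (40.1), Abca8a (24.3), Aqp4 (18.1), Slc1a3 (17.6), Kcnj10 (15.3) and Sox9 (3.43). Among these means, the ranges of Abca8a and Aqp4, of Aqp4 and Slc1a3, and of Slc1a3 and Kcnj10 overlapped between db/db libraries. In WT retina Aqp4 (15.9 FPKM) stood below Slc1a3 (22.5) and Kcnj10 (18.2), and the other genes kept the same order. The WT ranges of Apoe and Dkk3, of Car14 and Abca8a, and of Kcnj10 and Aqp4 overlapped. Glul was backed by 85407 to 106433 reads per library, and Sox9 by 359 to 735.

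The comparison of db/db with WT asked whether these genes differ in the diabetic retina. With all 9 libraries none of the 10 passed at an adjusted p under 0.05 in limma, where 0.500% of all tested genes did. At an unadjusted p under 0.05 there were 5 of the 10, against 19.3% of all tested genes, and limma-voom on reads recovered from the FPKM values also called none. In 3 of the 10 genes the db/db and WT values did not overlap: Glul was higher, and Slc1a3 and Abca8a lower, in every db/db library. Over all tested genes, 11.6% were separated in this way, 5.20% with db/db higher and 6.38% with db/db lower. The median log2 change of the 10 genes was -0.03, beside 0.0035 for all tested genes, with 5 changes above 0 and 5 below. In the fit without db/db 1, Aqp4 rose and Slc1a3, Abca8a and Rlbp1 fell past the threshold, 4 of 10 genes, in a fit where 10.6% of all tested genes passed. The same 4 passed with correction for GC content as well, where 4.89% of all tested genes did. With db/db 1 left out and no correction, 5 of the 10 genes had groups that did not overlap, against 21.1% of all tested genes.

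**Figure D1:**
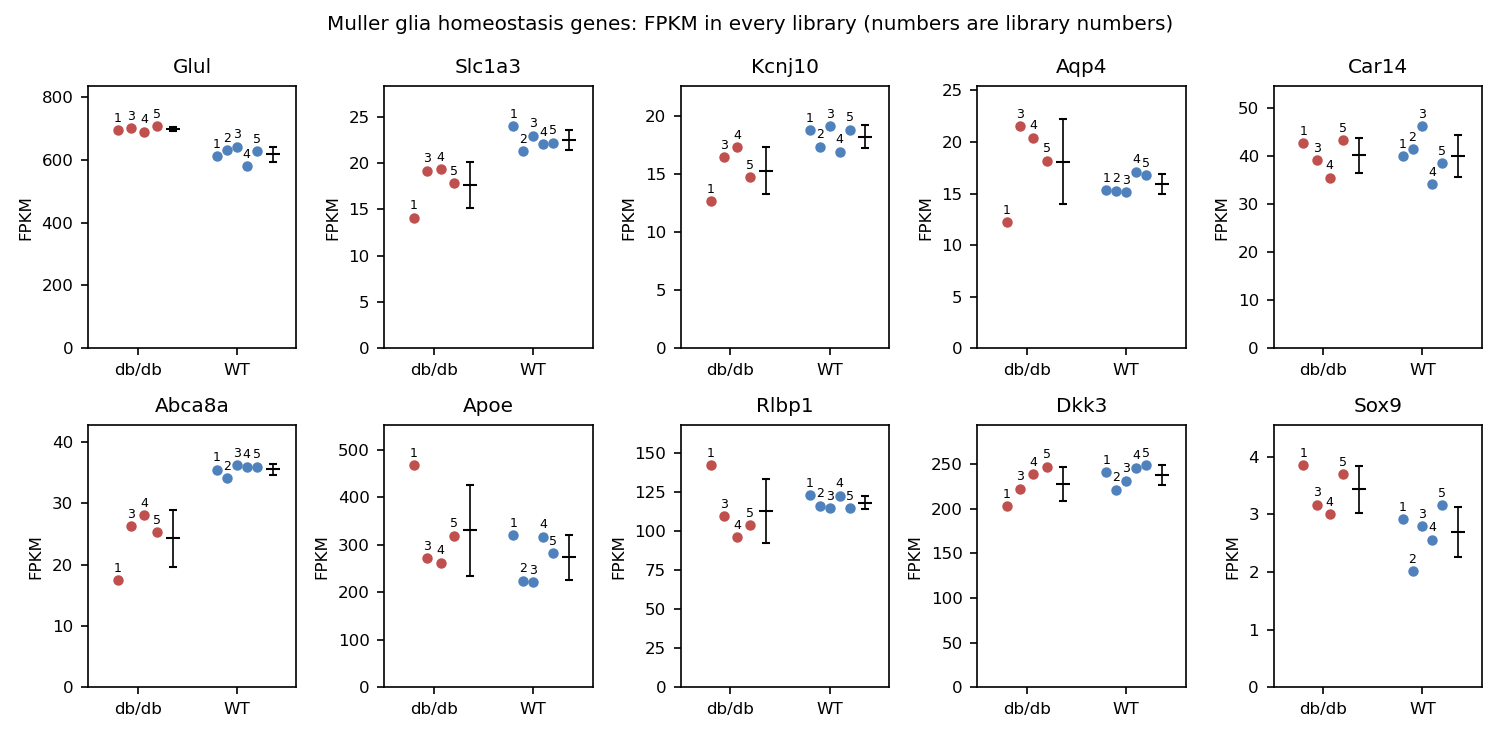
FPKM (vertical axes, from 0) of each of the 10 genes in every library, db/db in red and WT in blue, with the library's number above its point and the group's mean ± SD in black. The db/db points of Glul lie above all WT points, those of Slc1a3 and Abca8a lie below them, and db/db 1 is the extreme db/db library in 8 of the 10 panels.

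The transcript of the glutamine-forming enzyme was higher, and that of the glutamate transporter lower, in every db/db library than in any WT library. Glul encodes glutamine synthetase, which in the retina is made by Müller glia and joins ammonia to glutamate (ENSMUSG00000026473, chromosome 1, 153899944 to 153909723, mm10). It had 694.5, 699.9, 689.0 and 706.8 FPKM in db/db 1, 3, 4 and 5, against 610.4, 629.4, 641.6, 578.4 and 626.1 FPKM in WT 1 to 5. All 4 db/db libraries, db/db 1 included, lay above the highest WT library, and they spread less (coefficient of variation 1.09%) than the WT libraries (3.95%). The mean was 13.0% higher in db/db, a log2 change of 0.18 (SE 0.06, 95% interval 0.04 to 0.32) that did not pass over all genes (limma adjusted p = 0.178; 0.0617 without db/db 1). Over 22 other settings the change ran from 0.06 to 0.19. It was smallest with quantile normalization (limma adjusted p = 0.747).

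Slc1a3 encodes GLAST, the main glutamate transporter of Müller glia (ENSMUSG00000005360, chromosome 15, 8634124 to 8710764). It had 14.1, 19.2, 19.4 and 17.9 FPKM in db/db 1, 3, 4 and 5, against 24.0, 21.3, 23.0, 22.03 and 22.2 FPKM in WT 1 to 5. The groups did not overlap, and db/db 1 was the lowest of all. The mean was 17.6 ± 2.45 FPKM (SD, n = 4) in db/db and 22.5 ± 1.04 FPKM (SD, n = 5) in WT, a log2 change of -0.34 with a standard error of 0.09 (limma adjusted p = 0.0974). Without db/db 1, it fell by 0.25 on the log2 scale (adjusted p = 0.0212). The ratio of Glul to Slc1a3 within each library was 49.3, 36.5, 35.6 and 39.6 in db/db, against 25.4, 29.6, 27.9, 26.2 and 28.2 in WT. Its lack of overlap follows from Glul lying above and Slc1a3 below all WT libraries, and is not a further result. This ratio is one of 7 between genes that were computed, of which 3 did not overlap between the groups, and none was tested.

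Among 12 tested genes of glutamate uptake and recycling beside these, none passed with all libraries (median log2 change -0.04, and -0.07 without db/db 1). The smallest p belonged to Slc38a2, a glutamine transporter of neurons, at 16.6 ± 2.10 FPKM (SD, n = 4) in db/db and 13.1 ± 1.05 FPKM (SD, n = 5) in WT (log2 change 0.31, limma adjusted p = 0.112). Its values did not overlap between the groups. With db/db 1 left out, Slc38a2 rose (0.36, adjusted p = 0.0315), the one gene of this list that passed. Slc1a2, the related glutamate transporter GLT-1, had -0.15 (adjusted p = 0.437), and Slc38a3, the glutamine carrier that Müller glia use for export, stood at 207.8 FPKM in db/db and 190.5 FPKM in WT (0.11, adjusted p = 0.617).

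Transcripts of the potassium and water channels of the Müller endfoot lay on opposite sides of the WT mean in 3 of the 4 db/db libraries. In those 3, the transcript of the water channel lay above it. Kcnj10 encodes Kir4.1, the inwardly rectifying channel through which Müller glia take up and release potassium (ENSMUSG00000044708, chromosome 1, 172341210 to 172374085). It had 12.7, 16.5, 17.3 and 14.7 FPKM in db/db 1, 3, 4 and 5, against 18.8, 17.4, 19.1, 17.0 and 18.8 FPKM in WT 1 to 5. All db/db values lay below the WT mean, but db/db 4 was above WT 4, so the groups overlapped. The log2 change was -0.24 (SE 0.09, 95% interval -0.44 to -0.04, limma adjusted p = 0.187), and -0.16 without db/db 1 (adjusted p = 0.115).

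Aqp4 encodes aquaporin-4, the water channel of the endfeet (ENSMUSG00000024411, chromosome 18, 15389496 to 15410982). It had 12.3, 21.5, 20.4 and 18.2 FPKM in db/db 1, 3, 4 and 5, against 15.4, 15.3, 15.1, 17.1 and 16.8 FPKM in WT 1 to 5. The db/db libraries lay on both sides of WT: db/db 1 was the lowest of all 9 libraries and the other 3 were the highest. With all libraries the log2 change was 0.15 (SE 0.14, limma adjusted p = 0.588). In the fit without db/db 1, the mean was 20.05 ± 1.71 FPKM (SD, n = 3), 25.9% above WT at 15.9 ± 0.940 FPKM (SD, n = 5), and Aqp4 rose by 0.31 (adjusted p = 0.0235). That change was 0.46 with correction for GC content as well (adjusted p = 0.00794). The ratio of Aqp4 to Kcnj10 was 0.966, 1.31, 1.179 and 1.23 in db/db, against 0.818, 0.880, 0.790, 1.01 and 0.890 in WT, so db/db 1 alone overlapped WT.

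Of 13 other tested genes for potassium, water and their anchoring complex, none passed with all libraries. Their median log2 change was -0.04 with all libraries and changed sign without db/db 1 (0.07) and with correction for GC content (0.03). Aqp1, a water channel that the retina makes mainly in photoreceptors and some amacrine cells, had 81.2, 71.4, 72.3 and 84.2 FPKM in db/db, against 62.3, 50.9, 58.7, 66.3 and 54.3 FPKM in WT. These values did not overlap (log2 change 0.40, limma adjusted p = 0.0735), and without db/db 1 Aqp1 rose by 0.37 (adjusted p = 0.0342; 0.0576 with correction for GC content as well). Dmd, which encodes dystrophin, had -0.08 (adjusted p = 0.508).

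Car14, the membrane-bound carbonic anhydrase that Müller glia place on their surface, showed the smallest difference (ENSMUSG00000038526, chromosome 3, 95897768 to 95904691). It had 42.6, 39.2, 35.5 and 43.2 FPKM in db/db 1, 3, 4 and 5, against 39.9, 41.4, 46.2, 34.1 and 38.5 FPKM in WT 1 to 5. The db/db range lay wholly within the WT range, and the log2 change was 0.0058 (SE 0.09, 95% interval of the fold 0.867 to 1.16, limma adjusted p = 0.977). Its sign was negative in 11 of 22 other settings. Part of its 3' end overlaps Aph1a (mean 8.17 FPKM) on the opposite strand, and the strand of counting is not given. Car2, the cytosolic carbonic anhydrase of Müller glia, stood at 222.5 ± 12.3 FPKM (SD, n = 4) in db/db and 213.9 ± 17.1 FPKM (SD, n = 5) in WT (log2 change 0.06, adjusted p = 0.699). None of 12 tested genes of carbonic acid, bicarbonate and lactate handling, Car2 included, passed with all libraries. The smallest p belonged to the bicarbonate transporter Slc4a7 (-0.34, adjusted p = 0.0989) and the catalytically inactive relative Car10 (-0.32, adjusted p = 0.123), and both fell without db/db 1 (adjusted p = 0.0394 and 0.0377), though neither passed with correction for GC content as well (0.178 and 0.0627). Slc4a3, an anion exchanger, rose without db/db 1 (0.20, adjusted p = 0.0209) but did not pass with that correction (0.118). Car11, another inactive relative, fell in the corrected fit (-0.26, adjusted p = 0.0227).

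The largest change in size among the 10 genes was that of Abca8a, an ATP-binding cassette transporter of lipids (ENSMUSG00000041828, chromosome 11, 110025634 to 110095978). It had 17.4, 26.3, 28.1 and 25.4 FPKM in db/db 1, 3, 4 and 5, against 35.5, 34.1, 36.3, 36.0 and 36.0 FPKM in WT 1 to 5. All db/db values lay below all WT values, db/db 1 lowest, and the WT libraries were close together (coefficient of variation 2.46%). The mean was 31.7% lower in db/db, a log2 change of -0.55 (SE 0.12, 95% interval -0.82 to -0.28) that just missed the threshold over all genes (limma adjusted p = 0.0725; 0.00366 to 0.428 over 22 other settings). Without db/db 1, Abca8a fell by 0.41 (adjusted p = 0.00614). It also fell with correction for transcript length (-0.49, adjusted p = 0.0192), and with correction for GC content and db/db 1 left out (-0.31, adjusted p = 0.0171). Abca8a did not pass with correction for GC content over all libraries (-0.47, adjusted p = 0.179) or for GC content and length together (-0.40, adjusted p = 0.0508). Nor did it pass with a replicate block (adjusted p = 0.428) or with any single library other than db/db 1 left out.

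Abca8a lies in a cluster of related genes, and reads may be shared with its close copy Abca8b (chromosome 11, 109932190 to 109995845). Abca8b had 3.85, 5.21, 4.77 and 4.28 FPKM in db/db, against 6.06, 4.81, 4.90, 5.71 and 5.33 FPKM in WT (log2 change -0.21, limma adjusted p = 0.255). Its cluster neighbours Abca6 and Abca5 had -0.28 and -0.25 (adjusted p = 0.361 and 0.126), and Abca9 lay below the filter at 0.285 FPKM in db/db and 0.412 FPKM in WT.

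The start regions of the genes whose groups did not overlap are shown. Each line gives the 250 bases before the RefSeq start (GRCm38.p6) in the direction of the gene, with capitals marking matches on either strand to the CCAAT box, the GC box (GGGCGG), the TATA box (TATAAA) and the SOX cores, which are AACAAT and also ACAAAG.
Glul (chr1:153899679-153899928, + strand): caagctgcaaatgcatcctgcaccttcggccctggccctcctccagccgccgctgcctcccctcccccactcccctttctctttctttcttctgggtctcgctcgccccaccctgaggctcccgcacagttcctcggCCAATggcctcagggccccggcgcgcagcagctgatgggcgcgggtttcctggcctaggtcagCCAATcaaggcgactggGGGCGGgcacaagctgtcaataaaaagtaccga
Slc1a3 (chr15:8710808-8711057, - strand): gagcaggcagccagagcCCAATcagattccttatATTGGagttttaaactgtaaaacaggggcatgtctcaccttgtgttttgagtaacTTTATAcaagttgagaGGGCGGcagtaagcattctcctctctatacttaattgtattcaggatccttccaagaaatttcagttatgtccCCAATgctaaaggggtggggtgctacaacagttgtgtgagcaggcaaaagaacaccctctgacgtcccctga
Abca8a (chr11:110095938-110096187, - strand): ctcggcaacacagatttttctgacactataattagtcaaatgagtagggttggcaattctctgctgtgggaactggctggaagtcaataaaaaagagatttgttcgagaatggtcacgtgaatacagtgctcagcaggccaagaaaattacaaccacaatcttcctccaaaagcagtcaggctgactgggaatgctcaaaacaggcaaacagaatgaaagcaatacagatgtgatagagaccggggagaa
The Glul window held 64.8% G and C and 15 CpG pairs, against 44.8% and 2 in that of Slc1a3 and 43.2% and 4 in that of Abca8a, where the median of 27025 mouse promoters was 52%. CCAAT was found in 2 places in Glul and 3 in Slc1a3, the GC box GGGCGG in 1 place in each, and TATAAA in 1 place in Slc1a3, on the reverse strand. Among all promoters 34.5% held CCAAT, 32.9% GGGCGG and 13% TATAAA. The SOX cores, AACAAT in 9.65% of promoters and ACAAAG in 16.5%, were in none of the 3 windows, and Abca8a had no match to any of the 5 motifs. No matches overlapped.

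Apoe encodes apolipoprotein E, with which Müller glia, and also microglia and pigment epithelium, export lipid (ENSMUSG00000002985, chromosome 7, 19696109 to 19699188). It had 467.5, 272.3, 261.9 and 318.7 FPKM in db/db 1, 3, 4 and 5, against 320.4, 224.7, 221.2, 317.1 and 282.6 FPKM in WT 1 to 5. Apart from db/db 1, the highest of all, the db/db values lay within the WT range. The log2 change was 0.25 (SE 0.19, limma adjusted p = 0.484), and 0.07 without db/db 1 (adjusted p = 0.771).

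Of 18 other tested genes of lipid efflux and lipoprotein handling none passed with all libraries, and their median log2 change was -0.0023 (0.0058 without db/db 1). The smallest p values belonged to 2 cholesterol efflux transporters, both higher on average in db/db. Abcg1 had 20.2, 22.3, 23.0 and 23.1 FPKM in db/db, against 17.2, 18.5, 18, 18.8 and 19.3 FPKM in WT, without overlap (log2 change 0.25, limma adjusted p = 0.0795). Abca1 had 3.71, 5.89, 5.30 and 5.15 FPKM in db/db, against 2.90, 3.76, 3.72, 3.85 and 3.08 FPKM in WT (0.42, adjusted p = 0.108), and db/db 1 was the one library that overlapped WT. With db/db 1 left out, when 10.6% of all tested genes passed, 3 genes of the list rose and none fell: Abca1 (0.53, adjusted p = 0.0137), Abcg1 (0.30, adjusted p = 0.0126) and Abcg4 (0.28, adjusted p = 0.00987), a neuronal and glial relative. With correction for GC content as well, when 4.89% of all tested genes passed, the same 3 rose, and so did Vldlr, a lipoprotein receptor (0.18).

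Rlbp1 encodes CRALBP, which binds 11-cis retinoids in Müller glia and in the pigment epithelium (ENSMUSG00000039194, chromosome 7, 79374870 to 79387048). It had 142.0, 109.5, 95.9 and 103.4 FPKM in db/db 1, 3, 4 and 5, against 122.8, 116.1, 114.5, 122.5 and 114.4 FPKM in WT 1 to 5. The db/db libraries lay on both sides of WT, with db/db 1 above all WT libraries and the other 3 below all of them. The log2 change was -0.08 (SE 0.11, limma adjusted p = 0.689) with all libraries. In the fit without db/db 1, the mean was 12.8% lower than in WT, and Rlbp1 fell by 0.20 (adjusted p = 0.0456; 0.0279 with correction for GC content as well).

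Markers of the pigment epithelium and ciliary body, 10 genes without Rlbp1 and with Ttr the most abundant, differed between libraries. Their summed level was 431.8, 201.5, 89.6 and 213.1 FPKM in db/db 1, 3, 4 and 5, against 125.7 to 202.0 FPKM in WT. Rpe65, the isomerase that defines this cell type, stood at 33.7, 20.9, 9.47 and 19.1 FPKM in db/db, against 12.7 to 17.8 FPKM in WT, and none of the 10 markers was at 0. The library with the highest sum, db/db 1, also had the highest Rlbp1, Apoe and Sox9, and the one with the lowest, db/db 4, had the lowest Rlbp1 of all 9. The other libraries did not follow that order: db/db 3 and 5 had marker sums above those of at least 4 of the 5 WT libraries and Rlbp1 below all of them, and WT 5, with the lowest WT sum, had the highest WT Sox9. In db/db 1 the differences over all tested genes also went with transcript length (Spearman correlation -0.54). The longest transcripts of Apoe, Rlbp1 and Sox9 have 1408, 2142 and 4135 bases. Neither the part of pigment epithelium cells nor that of length in the values of Rlbp1, Apoe and Sox9 was tested. Of 12 other tested genes of retinoid handling none passed with all libraries or without db/db 1, and their median log2 change was 0.17 with all libraries and 0.02 without db/db 1. The smallest p belonged to Lrat (-0.37, limma adjusted p = 0.265) and Stra6 (0.33, adjusted p = 0.296).

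**Figure D2:**
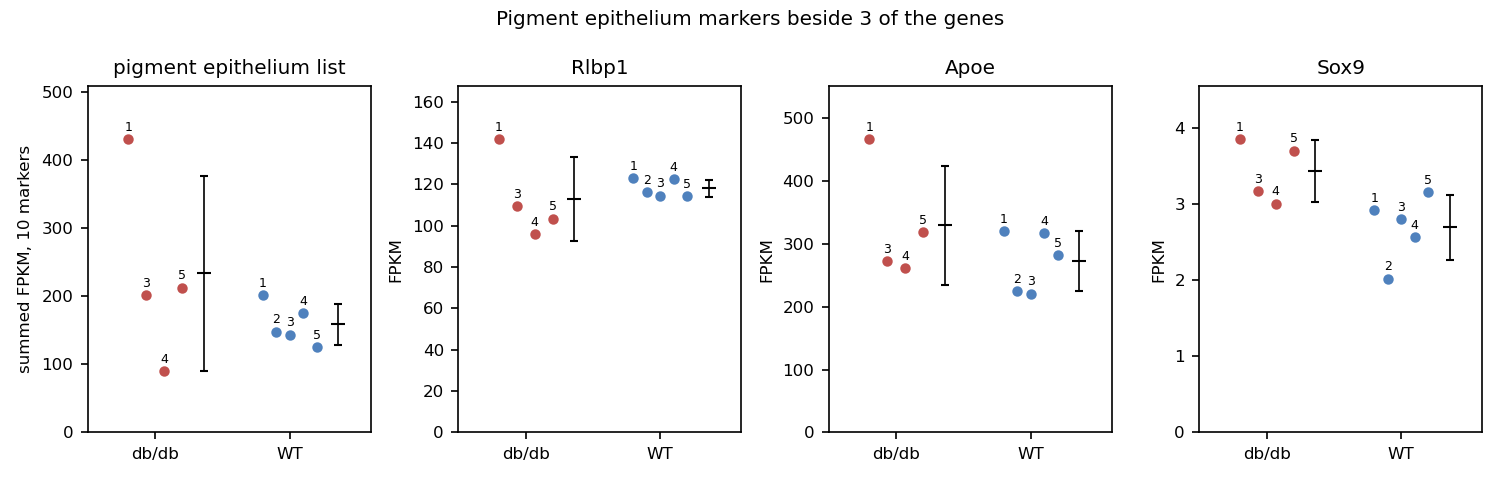
Summed FPKM of 10 pigment epithelium and ciliary body markers (left panel) beside the FPKM of Rlbp1, Apoe and Sox9, for db/db in red and WT in blue, with library numbers and the group's mean ± SD. All axes start at 0; db/db 1 is highest in each panel, and db/db 4 has the lowest marker sum (89.6 FPKM) and the lowest Rlbp1 (95.9 FPKM).

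Dkk3, a secreted Dickkopf-family protein abundant in Müller glia, hardly differed (ENSMUSG00000030772, chromosome 7, 112116017 to 112159057). It had 203.0, 222.6, 238.6 and 247.1 FPKM in db/db 1, 3, 4 and 5, against 240.7, 221.3, 231.5, 246.1 and 248.9 FPKM in WT 1 to 5. All but db/db 1 lay within the WT range, with a log2 change of -0.06 (SE 0.08, 95% interval of the fold 0.850 to 1.08, limma adjusted p = 0.663). None of 7 other tested modulators of Wnt signalling passed with all libraries. Lrp6, a Wnt co-receptor, and Frzb, a secreted Wnt antagonist, had the smallest p (-0.09 and 0.09, adjusted p = 0.438 and 0.555). Lrp5, another co-receptor, rose without db/db 1 (0.26, adjusted p = 0.0442) but did not pass with correction for GC content as well (0.138).

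Sox9, the transcription factor that marks Müller glia and retinal progenitors, was the rarest of the 10 (ENSMUSG00000000567, chromosome 11, 112782224 to 112787760). It had 3.85, 3.17, 3.002 and 3.70 FPKM in db/db 1, 3, 4 and 5, against 2.92, 2.02, 2.80, 2.56 and 3.16 FPKM in WT 1 to 5. All db/db values lay above the WT mean, but WT 5 exceeded db/db 4. The log2 change was 0.27 (SE 0.10, 95% interval 0.03 to 0.50, limma adjusted p = 0.208), and 0.22 without db/db 1 (adjusted p = 0.187). Its relatives Sox2 and Sox8, also present in Müller glia, had 0.0078 and 0.09 (adjusted p = 0.963 and 0.610).

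None of 14 tested glial and progenitor factors passed with all libraries. Nfia, a gliogenic factor, had 1.68, 1.81, 1.71 and 1.54 FPKM in db/db, against 2.32, 2.15, 2.17, 1.96 and 2.42 FPKM in WT (log2 change -0.25, limma adjusted p = 0.0944). Lhx2, a homeodomain factor that Müller glia need to stay quiescent in the mouse, had 8.86, 8.36, 8.37 and 8.12 FPKM in db/db, against 7.40, 6.57, 6.58, 7.54 and 7.31 FPKM in WT (0.22, adjusted p = 0.0995). Neither gene's values overlapped between the groups. Without db/db 1, Lhx2 rose and Nfia fell (adjusted p = 0.0484 and 0.0460), while with correction for GC content as well neither passed.

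**Figure D3:**
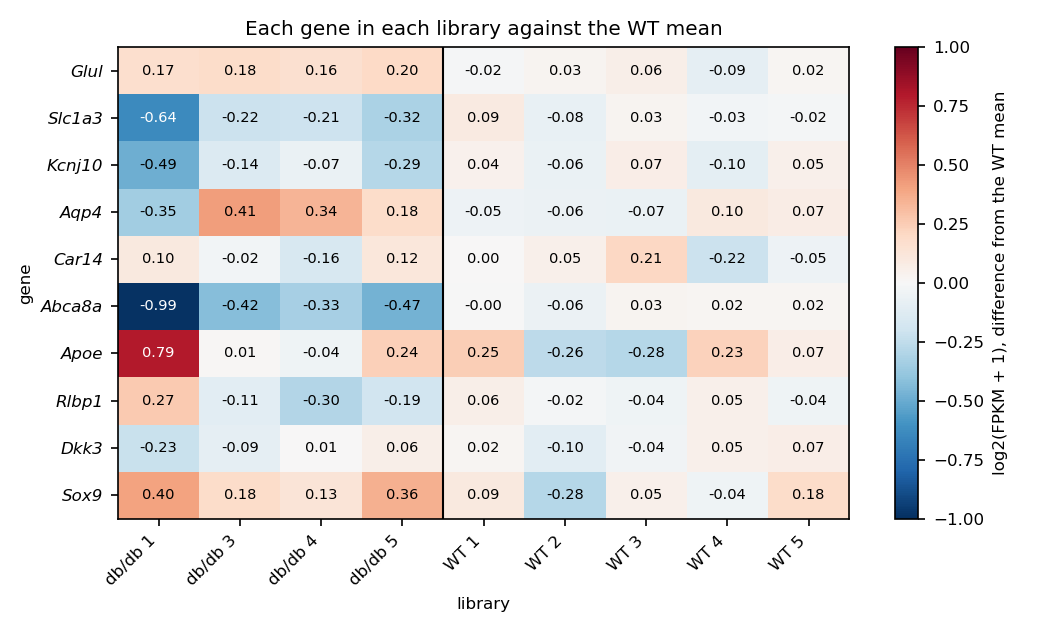
Difference of each gene (rows) in each library (columns, db/db left of the line and WT right of it) from the WT mean on log2(FPKM + 1), red above and blue below. In db/db 1 the values run from -0.99 (Abca8a) to 0.79 (Apoe), a wider spread than in db/db 3, 4 or 5.

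The sum of the 10 genes was 1610.0, 1430.2, 1409 and 1499 FPKM in db/db 1, 3, 4 and 5, against 1323 to 1431 FPKM in WT, and the groups overlapped. The median of the 10 differences from the WT mean was -0.06, -0.06, -0.05 and 0.09 on the log2 scale in db/db 1, 3, 4 and 5, against -0.06 to 0.03 in WT. In db/db 1, 4 genes lay above the WT range and 5 below it, with Car14 within it. The longest transcripts of those above (Apoe, Rlbp1, Glul and Sox9) had 1408 to 4135 bases. Those below (Dkk3, Slc1a3, Aqp4, Kcnj10 and Abca8a) had 3359 to 5619, so the ranges overlapped. Car14, within the WT range, had 1709. The part of length in these values was not tested. In db/db 3 there were 3 above and 4 below, in db/db 4, 2 above and 3 below, and in db/db 5, 3 above and 4 below. Glul was above the WT range and Slc1a3 and Abca8a below it in each of the 4. The share of all tested genes outside the WT range in each db/db library was not computed. Whether these counts are particular to the 10 genes is therefore not known. The distance between the highest and the lowest of the 10 differences was 1.78 in db/db 1, 0.838, 0.672 and 0.8289 in db/db 3, 4 and 5, and 0.227 to 0.494 in WT.

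**Figure D4:**
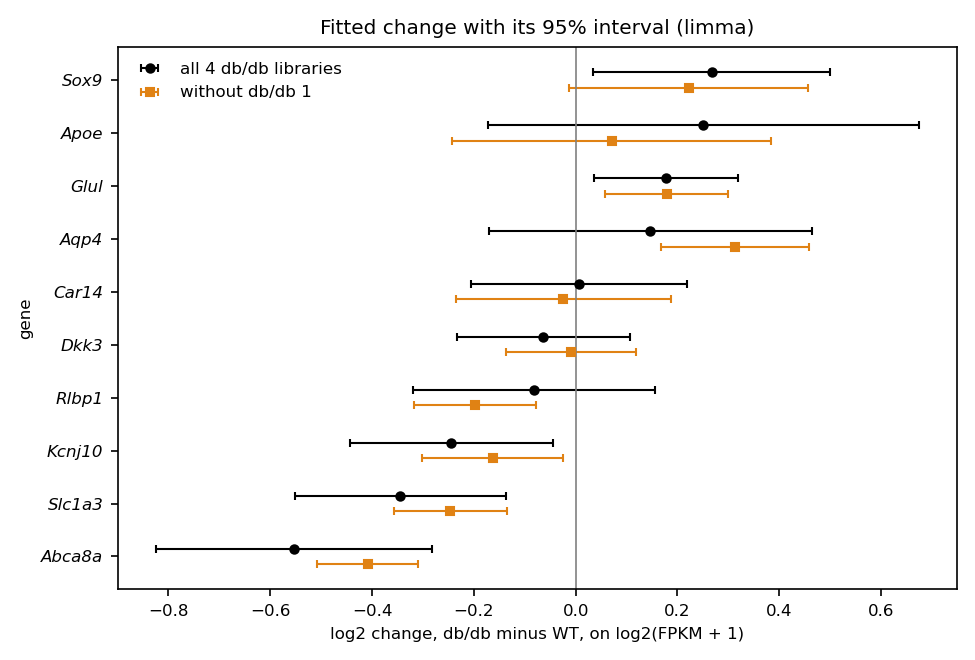
Log2 change of each gene, db/db minus WT, on log2(FPKM + 1) with its 95% interval from limma, with all libraries (black circles) and without db/db 1 (orange squares). The intervals of Glul, Slc1a3, Kcnj10 and Abca8a exclude 0 in both fits, before adjustment over all genes, that of Sox9 only with all libraries, and those of Aqp4 and Rlbp1 only without db/db 1.

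Other markers of Müller glia did not pass either. Of 16 tested, 12 had a log2 change above 0 and 4 below, with a median of 0.07 (0.04 without db/db 1, and 0.01 with correction for GC content as well). Lhx2 and Il33, an alarmin stored in Müller nuclei (18.1 ± 1.87 FPKM (SD, n = 4) in db/db and 21.7 ± 2.33 FPKM (SD, n = 5) in WT, log2 change -0.25), had the smallest p (limma adjusted p = 0.0995 and 0.211). With db/db 1 left out, Lhx2 and Notch1 rose (adjusted p = 0.0484 and 0.0324), and neither passed with correction for GC content as well (0.308 and 0.0883). Among 10 tested genes of reactive gliosis none passed with all libraries. Fgf2, a growth factor made by Müller glia and photoreceptors, had -0.34 and Cp, ceruloplasmin, had -0.38 (adjusted p = 0.0735 and 0.126), both without overlap between the groups. In the fit without db/db 1, Fgf2 fell and Stat3, a transcription factor of gliosis, rose (-0.27 and 0.23, adjusted p = 0.0243 and 0.0216), and with correction for GC content as well Stat3 passed and Fgf2 did not (0.0386 and 0.0990). Gfap, the filament protein that reactive Müller glia and astrocytes make, stood at 5.66, 5.08, 3.66 and 4.70 FPKM in db/db, against 7.29, 2.92, 4.25, 2.96 and 4.81 FPKM in WT, with broad overlap (0.13, adjusted p = 0.757).

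In all, the lists held 106 tested genes beside the 10. None passed with all libraries, 22 (20.8%) had an unadjusted p under 0.05, beside 19.3% of all tested genes, and 12 (11.3%) had groups that did not overlap, 4 higher and 8 lower in db/db, beside 11.6%. Without db/db 1, 10 rose and 4 fell (13.2%), beside 10.6% of all tested genes. With correction for GC content as well 6 rose and 1 fell (6.60%), beside 4.89%. All these shares lie near those of all tested genes. Over 22 other settings the medians of 6 of the 9 lists changed sign in at least 1, and those of the other Müller glia markers and retinoid handling (above 0) and of bicarbonate and lactate handling (below 0) did not.

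**Figure D5:**
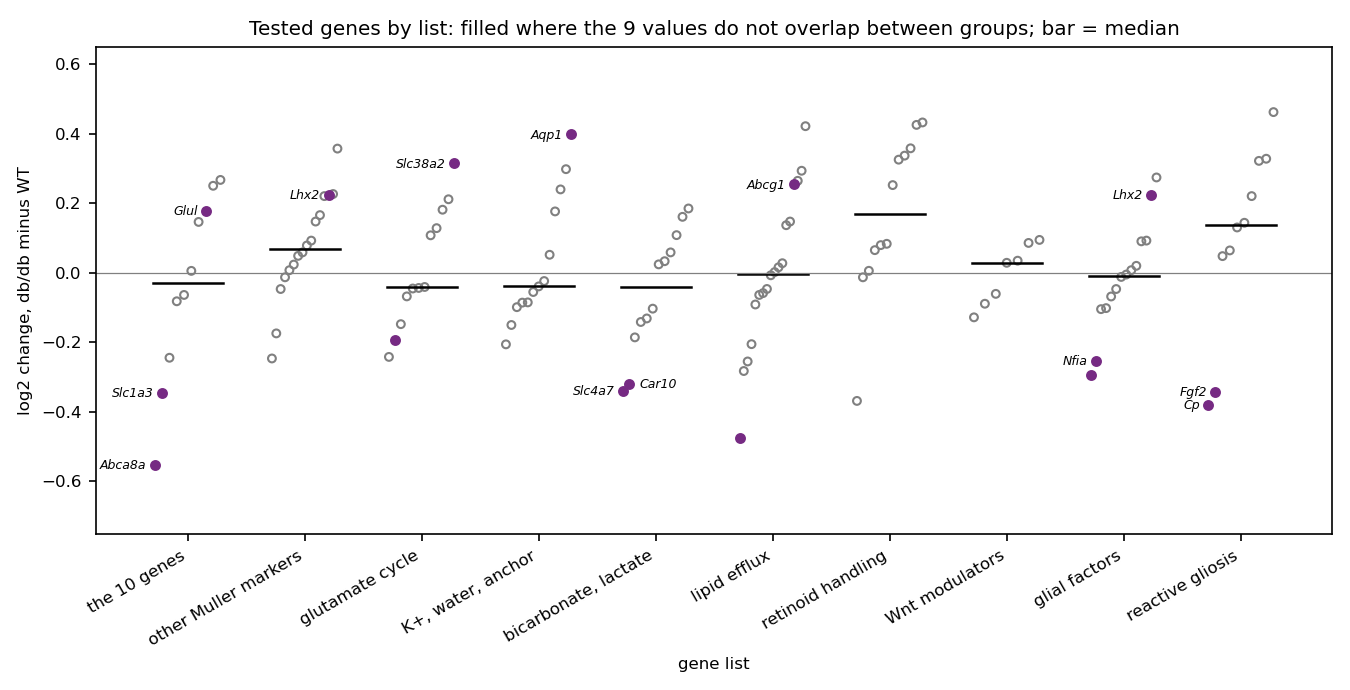
Log2 change, db/db minus WT, of each tested gene (points) in the 10 genes and in 9 lists of related genes, with the median of each list as a bar. Filled points are genes whose 9 values do not overlap between the groups, named where they are reported here; Abca8a (-0.55) lies lowest of all points, and the list medians lie between -0.04 and 0.17.

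Several of these genes are shared with other cells, whose markers varied between libraries. Microglial markers, 11 in all, summed to 26.8 to 31.7 FPKM in db/db and 27.0 to 37.5 FPKM in WT. None of the 6 tested passed with all libraries. C1qa stood at 2.58 FPKM in db/db and 2.94 FPKM in WT. It fell without db/db 1 (log2 change -0.34), when 10.6% of all tested genes passed. The 8 astrocyte markers summed to 22.02 to 33.1 FPKM in db/db and 17.6 to 26.1 FPKM in WT, and the astrocyte factor Pax2 stood near 0, at 0.0968 FPKM in db/db and 0.107 FPKM in WT. Of 7 tested astrocyte markers none passed, and 2 had groups that did not overlap, where 11.6% of all tested genes did. These were Aldh1l1 and Agt, named after their values were seen (0.32 and 0.69, limma adjusted p = 0.0822 and 0.0849). Among 9 tested endothelial and pericyte markers 1 was higher and 1 lower without overlap, and among 8 of pigment epithelium 1 was higher. Oligodendrocyte markers, 8 in all, summed to 14.4 to 19.9 FPKM in db/db and 14.7 to 48.5 FPKM in WT, with Mbp highest in WT 1 (20.3 FPKM). The 6 lens and cornea markers summed to 19.4 to 191.4 FPKM in db/db and 1.87 to 91.6 FPKM in WT, and Cryaa, a lens crystallin, reached 105.0 FPKM in db/db 5. The 10 endothelial and pericyte markers summed to 51.3 to 65.1 FPKM in db/db and 47.7 to 55.5 FPKM in WT, and Pecam1 had a log2 change of 0.0056. The 8 bipolar cell markers summed to 290.9 to 301.6 FPKM in db/db and 284.7 to 297.7 FPKM in WT. No listed marker of these types was at 0 in all libraries, and their part in the values of the 10 genes was not tested.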

How the data were processed

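Total retinal RNA (SMARTER mRNA kit, per the labels' protocols) was sequenced in 4 db/db and 5 wild-type libraries. The deposited values, in FPKM as the authors scaled them, cover 35397 genes. Per the submitters' processing notes the genome was mm10. Not given in the sources used here are the aligner, the counter, its annotation and its use of strand. Columns named DR and Control were matched by number to the db/db and wild-type titles, an inference from the names. Symbols, positions, exon lengths and GC content came from GENCODE M21 (same assembly; 34499 identifiers matched), and promoters from RefSeq (GRCm38.p6; 7 of the 10 genes matched).

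Depth was read from the FPKM steps: with union exon lengths, 99.0% to 99.2% of low values were whole within 0.1 read, which gave 36.6 to 47.9 M reads per library. Tests used limma 3.58.1 in R 4.3.3 on log2(FPKM + 1), which understates the change of low genes, with an intensity trend, no covariate, a filter at a mean of 1 FPKM, and Benjamini-Hochberg adjustment over 14588 genes (threshold 0.05). The steps were tested on simulated data (14588 genes, 200 of them altered). At a log2 size of 0.5 they recovered 55 of 100 and at a size of 1, 86 of 100, with 6 false calls. The simulated noise was independent between genes, and the altered genes were not among the lowest. It lacked the library-wide differences of db/db 1 and the trend with GC content. These rates therefore check the steps and do not describe the fit on the real libraries. Figures were drawn with matplotlib 3.10.9.

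The 10 genes and the lists were chosen with earlier results of these data known. All 10 genes are named, and of each list the 2 genes with the smallest p, as none passed, together with defining markers and close paralogs; other names were chosen after their values were seen. Some genes that this rule names are not reported here. Alternatives were another pseudocount, filter, trend, scaling or normalization, a replicate block, each library left out, correction for GC content in 20 bins, and limma-voom on the recovered reads. Correction for transcript length was added after seeing the data.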

Additional observations from a re-analysis of the deposited data

How the results depend on the processing

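Over 22 alternatives 193 values of the 10 genes kept both their direction and their side of the threshold, 14 passed that had not with all libraries, and 12 changed sign. Car14 changed sign with median-of-ratios scaling (-0.0035), quantile normalization (-0.0889), GC correction (-0.0264; -0.0362 without db/db 1), length correction (-0.0907; -0.0136 without db/db 1) and GC with length correction (-0.0811), and ran from -0.0485 to 0.0621 with 1 library left out. Apoe changed sign with GC correction without db/db 1 (-0.0362). Of the 10 genes, 1 rose and 3 fell with GC correction or length correction without db/db 1. In these fits 4.89% and 13.6% of all tested genes passed. With length correction alone 2 fell (Slc1a3 and Abca8a), where 3.51% of all tested genes passed. Leaving out 1 library at a time gave 0 to 1 of the 10 higher and 0 to 3 lower, 0 to 10 of the related genes higher and 0 to 4 lower, and 3 to 688 of all tested genes higher and 1 to 852 lower; only leaving out db/db 1 gave calls among the 10. Each library left out moved the counts over all genes by more than 1.5 times, to 3 to 8 higher and 1 to 5 lower where it was not db/db 1.

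Over all genes, 34 were called higher and 39 lower. The counts were 7 and 2 with no filter on low values, 17 and 13 with a filter at 5 FPKM (where Sox9 was not tested), 5 and 1 with GC correction, 373 and 341 with GC correction without db/db 1, 46 and 64 with limma-voom, 270 and 242 with length correction, and 1050 and 939 with length correction without db/db 1. Of the 106 related genes, 6 rose and 1 fell with GC correction without db/db 1 and also with length correction alone. Of all tested genes 4.89% and 3.51% passed there. With length correction without db/db 1, 10 related genes rose and 5 fell, beside 13.6% of all tested genes. With GC and length correction 2 rose, beside 0.48%. The cause of these changes was not tested.

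With the replicate block, 2 genes were called higher and 0 lower, and none of the 10 passed (Abca8a and Slc1a3 both at adjusted p = 0.428). As no db/db library has the number of WT 2, this fit gave the same log2 changes as the fit without WT 2. They were -0.57 for Abca8a and -0.36 for Slc1a3. The block also takes up degrees of freedom, so the smaller counts do not measure an effect of pairing. The replicate numbers are shared between the groups, and the labels do not say whether they mark pairs. Deviations of same-numbered libraries over all tested genes had r = 0.04, 0.05, -0.18 and 0.13. Those of unlike-numbered libraries ran from -0.21 to 0.18. This check therefore showed no sign of pairing but cannot exclude it.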
